A study of Mus musculus with 4 samples.

Results

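Pax7 binding was examined at 9 genes whose products sit on the surface of muscle satellite cells and are used to recognise or sort them: Cdh15, Vcam1, Itga7, Itgb1, Cd34, Sdc3, Sdc4, Calcr and Ncam1. A Pax7 ChIP-seq peak was assigned to a gene when its summit, the base with the highest pile-up of reads, lay in the gene or within 100 kb of either end. This took in 40 of the 20579 peaks of the deposited list, or 0.194%. The genes were listed by name, with earlier results of these data known, and 8 of the 9 had at least 1 peak, while Cd34 had none.

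The peaks came from iPax7 cells, muscle progenitors made from mouse embryonic stem cells (ESCs) of the A2lox-cre line that carry a single Pax7 cDNA next to Hprt under a promoter switched on by doxycycline (Dox). Dox was given at 1 µg/ml from day 3 of differentiation in serum, PDGFRα+FLK1- cells were sorted at day 5 and grown with Dox and 10 ng/ml basic FGF, and chromatin was taken at day 9 after 6 days of Dox. Pax7 ChIP and input were each sequenced as 2 libraries, all from cells of this genotype and treatment. The authors merged the replicates before calling peaks, so a peak carries no replicate error, no comparison below has a test, and the values describe this list. No Pax7 ChIP from cells without Dox was analysed here, and the Pax7 in these cells came from a transgene in ESC derivatives and not from satellite cells of a muscle. The list holds no read depth and no expression values, so the progenitor identity could not be checked against marker genes, and nothing below bears on whether a surface gene was transcribed.

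Satellite cells are the stem cells of skeletal muscle and lie between a muscle fibre and its basal lamina. Pax7, the transcription factor that defines them, binds DNA through a paired domain and a homeodomain. The surface proteins studied here hold the cell in this place and pass signals to it: cadherins and immunoglobulin-type adhesion molecules bind other cells, integrins bind the lamina, syndecans are heparan sulphate proteoglycans that present growth factors, and the calcitonin receptor is a G protein-coupled receptor linked to quiescence.

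The bases under the summits are shown for 3 sets of peaks. Each sequence is the summit base with the 50 bases to either side of it on the plus strand of NCBIM37 (mm9), and peaks are numbered along the chromosome within each gene's window. The first set holds 6 of the 7 member peaks with the paired-box core GTCACG in this window, on either strand, and shows where the core stood. Capitals mark GTCACG, or CGTGAC where the core was on the minus strand.
Cdh15 peak 3, chr8:125356735-125356835: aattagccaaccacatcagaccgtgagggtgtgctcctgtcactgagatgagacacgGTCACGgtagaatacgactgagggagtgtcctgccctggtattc
Vcam1 peak 4, chr3:115829491-115829591: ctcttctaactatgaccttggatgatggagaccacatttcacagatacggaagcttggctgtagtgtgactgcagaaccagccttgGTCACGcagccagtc
Sdc3 peak 3, chr4:130361770-130361870: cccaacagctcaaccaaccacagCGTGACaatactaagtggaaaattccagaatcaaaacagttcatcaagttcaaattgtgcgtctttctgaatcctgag
Sdc4 peak 1, chr2:164211974-164212074: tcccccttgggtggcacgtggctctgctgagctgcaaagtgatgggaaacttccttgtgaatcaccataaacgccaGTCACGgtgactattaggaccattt
Ncam1 peak 7, chr9:49611865-49611965: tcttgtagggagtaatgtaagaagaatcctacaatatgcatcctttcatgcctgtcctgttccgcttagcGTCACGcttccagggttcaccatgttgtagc
Ncam1 peak 10, chr9:49635871-49635971: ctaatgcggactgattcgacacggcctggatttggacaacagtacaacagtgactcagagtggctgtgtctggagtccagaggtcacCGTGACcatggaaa

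The next set holds the strongest peak of each gene whose strongest peak had no GTCACG, with no base in capitals. They are shown because the highest fold enrichment of all 40 peaks, at Calcr, was among them.
Itga7 peak 3, chr10:128414822-128414922: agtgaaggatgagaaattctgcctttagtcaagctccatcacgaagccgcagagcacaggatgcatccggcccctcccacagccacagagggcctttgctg
Itgb1 peak 4, chr8:131251311-131251411: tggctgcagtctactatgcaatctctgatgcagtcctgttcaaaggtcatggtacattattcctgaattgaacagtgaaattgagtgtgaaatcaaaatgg
Sdc3 peak 5, chr4:130439939-130440039: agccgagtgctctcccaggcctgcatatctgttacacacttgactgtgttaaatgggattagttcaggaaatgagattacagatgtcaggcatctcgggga
Calcr peak 1, chr6:3691314-3691414: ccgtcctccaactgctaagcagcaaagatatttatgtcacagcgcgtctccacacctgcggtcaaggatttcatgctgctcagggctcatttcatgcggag

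The last set holds the peaks within 1 kb of an annotated start of the gene itself, which existed at Itgb1 and Ncam1. Neither held a Pax-type motif as defined below.
Itgb1 peak 3, chr8:131210180-131210280: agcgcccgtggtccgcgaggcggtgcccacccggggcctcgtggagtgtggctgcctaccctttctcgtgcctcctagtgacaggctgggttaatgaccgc
Ncam1 peak 6, chr9:49607151-49607251: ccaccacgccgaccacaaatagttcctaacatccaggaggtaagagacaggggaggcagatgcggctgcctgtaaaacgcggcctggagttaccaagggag

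The 9 windows covered 2.36 Mb and held 16.9 summits per Mb, against 8.05 per Mb over the sequenced genome. Having a peak at all was common. Of 22208 protein-coding genes, 75.2% had at least 1 summit in the gene or within 100 kb, and of the 9300 genes in the length range of the members, 19.4 to 297 kb, 83.9% did. The 8 of 9 seen here is near that background. A summit between the gene's own start and end was found at 7 of the 9 genes, against 22.3% of all protein-coding genes and 37.9% of those in the same length range, with Itga7 and Cd34 the exceptions. A summit within 10 kb of the gene's start was found at 4 of 9, namely Cdh15, Vcam1, Itgb1 and Ncam1, against 24.2% of all protein-coding genes. With 9 genes picked by name these shares are descriptions only.

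The genes differed widely among themselves. Ncam1 had 10 peaks, Cdh15 had 7, Vcam1 had 6, Itgb1 and Sdc3 had 5 each, Itga7 had 4, Sdc4 had 2 and Calcr had 1. The median of 5 compares with 2 for all protein-coding genes and 3 for those of like length. Since Ncam1 is also the longest member, density gives another order: Cdh15 led with 31.9 summits per Mb of window, followed by Vcam1 with 27.3, Sdc3 with 21.4, Itgb1 with 20.2, Ncam1 with 20.1 and Itga7 with 17.8. These 6 genes lay above the median of 9.16 per Mb for protein-coding genes. Sdc4, with 9.11 per Mb, lay just under it, and Calcr, with 3.58, and Cd34 lay further below. Counts of peaks pooled over libraries have no spread, so neighbours in this order, such as Sdc3, Itgb1 and Ncam1, cannot be separated.

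**Figure D1:**
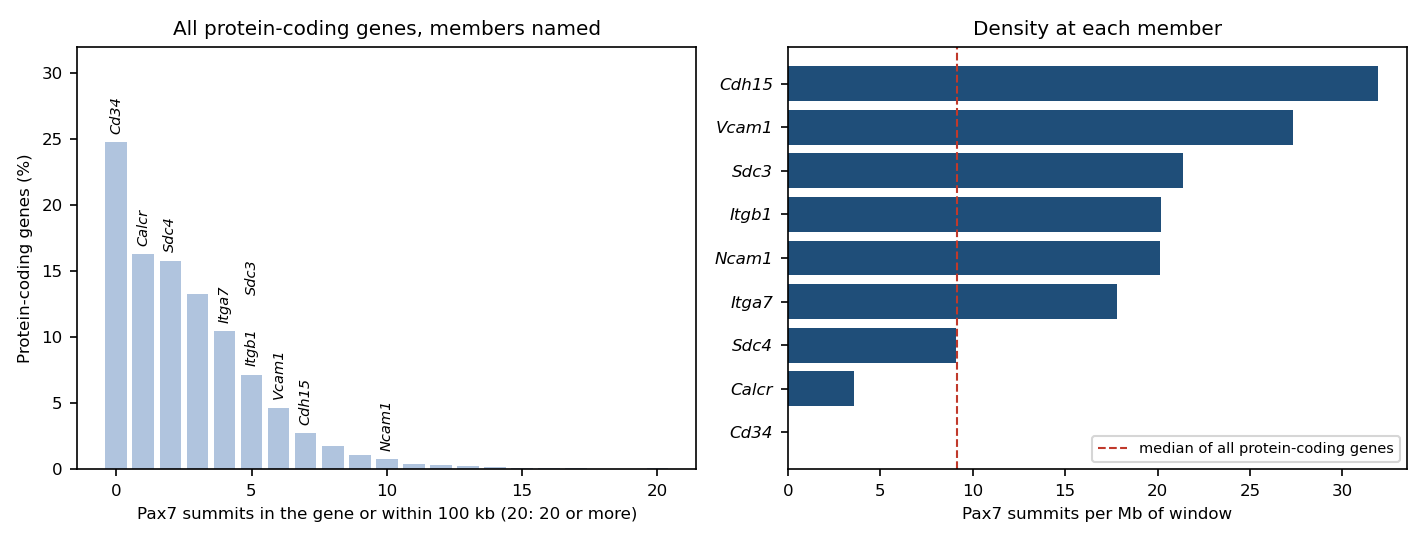
Left, share of protein-coding genes (%) by the number of Pax7 summits in the gene or within 100 kb, with the 9 members named above their counts. Right, summits per Mb of window for each member as bars, with a dashed line at the median of 9.16 per Mb for all protein-coding genes, and 6 members reach past it.

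**Figure D2:**
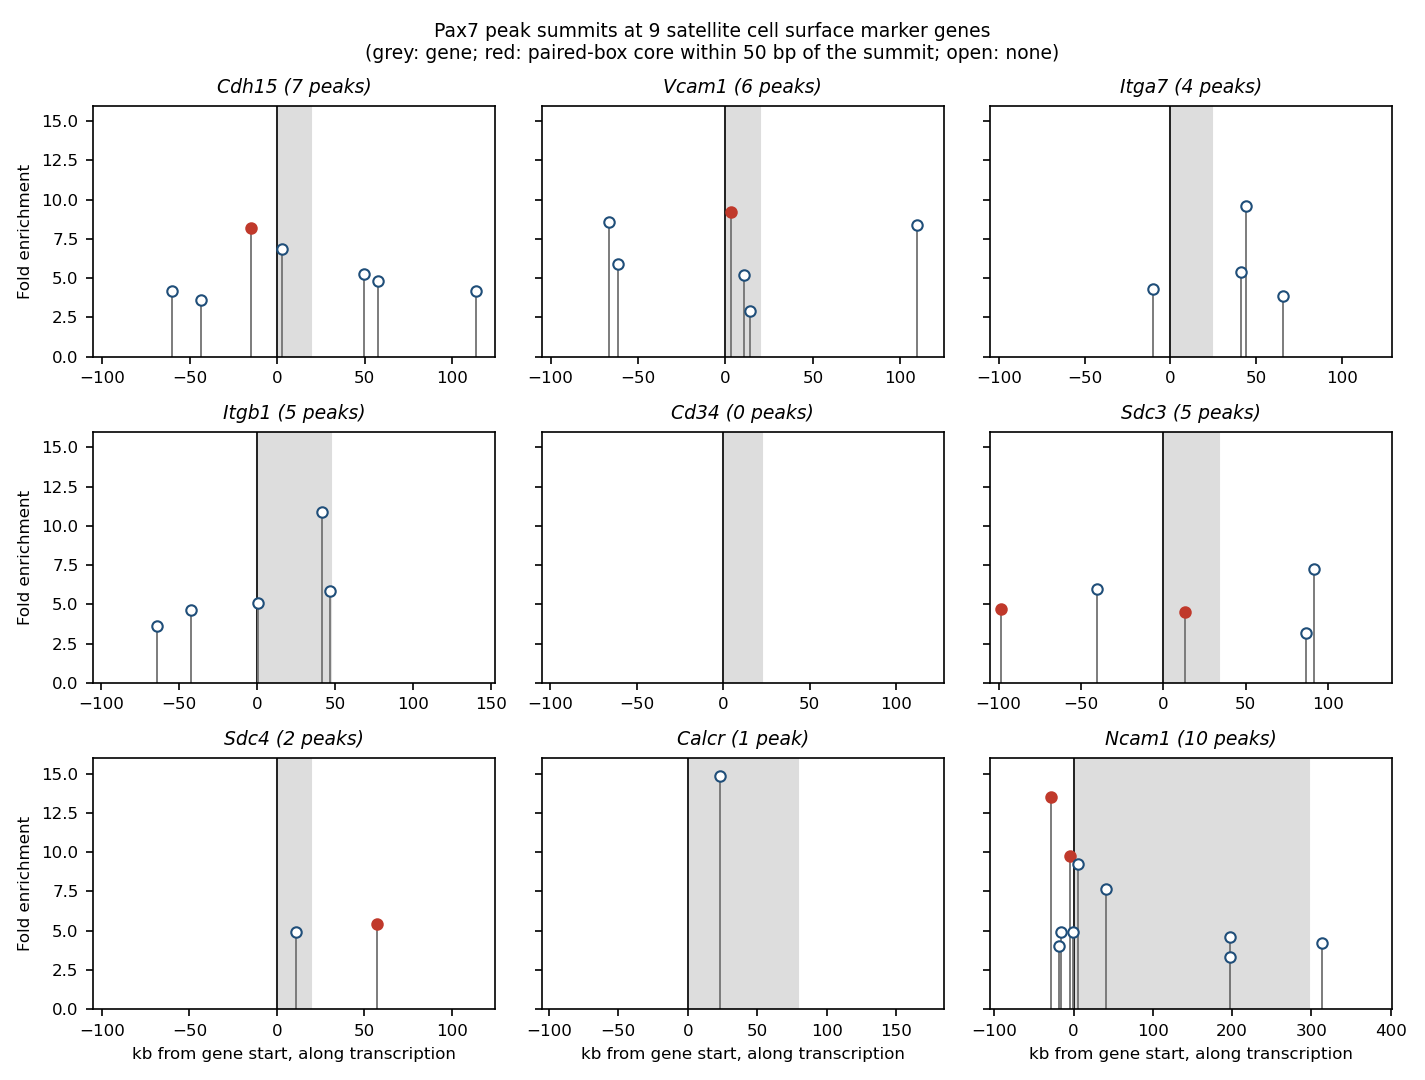
Each panel plots the Pax7 summits of a member by their distance in kb from the gene's start along the direction of transcription (horizontal) and their fold enrichment (vertical), with the gene shaded grey and peaks with GTCACG within 50 bp of the summit in red. Ncam1 shows a run of 6 summits around its start, Calcr a lone tall peak inside the gene, and Cd34 an empty window.

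Cdh15 encodes M-cadherin, the calcium-dependent adhesion molecule between satellite cell and fibre. It is a short gene of 19.4 kb on the plus strand of chromosome 8, from 125371866 to 125391297, and its 7 peaks gave it a count above that of 92.4% of protein-coding genes and a density above 96.2%. Fold enrichment, the authors' ratio of ChIP reads to the local background at the summit, was 4.16 at 59.9 kb upstream, 3.6 at 43.6 kb upstream, 8.22 at 15.1 kb upstream, 6.83 in intron 1 at 2838 bp from the start, and 5.25, 4.80 and 4.15 at 49.4, 57.5 and 113 kb downstream of it. Within the 100 kb limit, the 2 highest values belonged to the 2 summits closest to the start. A stronger peak, 10.8-fold, lay just outside the limit, 101.9 kb upstream. The strongest, chr8:125356638-125356951 with a −log10 q of 30.9, had GTCACG centred 9.5 bp from its summit and stood above 86.1% of all peaks. Another gene start, that of Gm16378, was nearer to it than that of Cdh15, at 8693 bp. The intron 1 peak, chr8:125374589-125374972, had no Pax-type motif but an E-box, CAGCTG, 17.5 bp from the summit, the kind of site bound by myogenic bHLH factors. Of the outer peaks, the 2 farthest upstream lay in introns of Acsf3 and the 3 downstream in introns of Ankrd11. All 7 also lay within Gm20388, an annotated gene model that spans the region.

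Vcam1, an immunoglobulin-type adhesion molecule that binds the integrin made of Itga4 and Itgb1, had the highest median of the genes with more than 2 peaks, 7.13-fold. The gene covers 19.7 kb of chromosome 3 on the minus strand, from 115812938 to 115832606. Inside it, 3 peaks had 9.20-fold enrichment in intron 2, 5.21 in intron 5 and 2.88 in intron 7, at 3065 bp, 10.4 kb and 13.8 kb from the start. Each summit farther from the start had a lower value, from one above 90.4% of all peaks to the weakest of the 40. The intron 2 peak, chr3:115828859-115829697, was also the widest of the 40 at 839 bp, had a −log10 q of 43.1, and carried GTCACG 38.5 bp from its summit. Upstream, the peaks at 61.2 and 66.6 kb had 5.90-fold and 8.55-fold enrichment, the former with TAATTA 25.5 bp from its summit. The last, 8.37-fold at chr3:115722871-115723234, lay 110 kb from the start on the downstream side in an intron of Extl2. In all, 5 of 6 Vcam1 peaks reached 5-fold.

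Ncam1, the neural cell adhesion molecule, binds its like on other cells and can carry polysialic acid. Its 10 peaks were more than at 98.0% of protein-coding genes, in a gene of 297 kb on the minus strand of chromosome 9, from 49310257 to 49607027. Ncam1 is longer than 97.6% of protein-coding genes, and its density of summits was above that of 84.8% of them. The peaks were not spread along the gene: 6 lay within 34.9 kb around the start. From the gene outwards their fold enrichment was 9.27 in intron 1 at 5984 bp, 4.88 at 174 bp upstream, 9.74 at 4888 bp upstream, 4.90 at 15.4 kb, 4.01 at 17.8 kb and 13.5 at 28.9 kb upstream. High and low values were mixed, and the peak closest to the start was among the low ones. The strongest, chr9:49635756-49636076 with a −log10 q of 61.2, was above 98.1% of all peaks and had the core as CGTGAC 39.5 bp from its summit. The peak at 4888 bp upstream, chr9:49611756-49612094, had GTCACG 22.5 bp from its summit, and both upstream peaks lay between genes with Ncam1 as the nearest start. Elsewhere in intron 1 the peaks had 7.67-fold enrichment at 41.1 kb and 4.60-fold and 3.31-fold near 198 kb, the last pair with summits 460 bp apart. The 10th, 4.19-fold, lay past the 3′ end and 667 bp from the start of Ttc12.

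The integrins Itga7 and Itgb1 form the laminin receptor of muscle cells, in which Itga7 is the alpha chain and Itgb1 the beta chain shared with many other integrins. Itgb1 covers 47.5 kb of the plus strand of chromosome 8, from 131209554 to 131257100, with no other protein-coding gene in its window, and all 5 of its peaks had it as the nearest coding gene. They had 3.63-fold enrichment at 63.8 kb upstream, 4.66 at 42.2 kb upstream, 5.06 at 676 bp inside the gene, 10.9 at 41.8 kb and 5.87 at 46.8 kb. The strongest, chr8:131251200-131251556 with a −log10 q of 57.2, thus lay near the 3′ end, in the last intron, 3128 bp from the start of a shorter transcript, and stood above 95% of all peaks. The 5.87-fold peak beside it was the only member peak in an exon, the last of 16, in untranslated sequence. The 5.06-fold peak in intron 1 had the highest GC content of the 40, 68.3%. None of the Itgb1 peaks held a Pax-type motif.

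At Itga7, 24.5 kb on the plus strand of chromosome 10 from 128370869 to 128395333, no summit lay in the gene and none of the 4 had Itga7 as the nearest coding start. The window held 10 other protein-coding genes. Fold enrichment was 4.30 at 10.1 kb upstream, where the summit was 143 bp from the start of Bloc1s1, and 5.41, 9.59 and 3.84 at 41.0, 44.0 and 65.7 kb from the Itga7 start on the downstream side. The 9.59-fold peak, chr10:128414724-128415002 with a −log10 q of 31.9, was above 91.6% of all peaks and lay between genes, nearest to the start of Olfr9, an olfactory receptor gene. Again no Pax-type motif was found, and the 5.41-fold peak had an E-box 12.5 bp from its summit. The alpha and beta chains thus had similar numbers of peaks, 4 and 5, but 0 and 3 of them inside the gene.

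The syndecans Sdc3 and Sdc4 are the proteoglycans of satellite cells. Sdc3 covers 33.8 kb of the plus strand of chromosome 4, from 130348452 to 130382234, and had 5 peaks, none within 10 kb of its outermost start. Fold enrichment was 4.71 at 98.4 kb and 6.00 at 40.0 kb upstream, 4.54 in intron 1 of Sdc3 at 13.4 kb, and 3.20 and 7.24 at 86.3 and 91.5 kb on the downstream side. The intron 1 summit was 6033 bp from another annotated start of Sdc3. The only gene with GTCACG in peaks of less than 5-fold was Sdc3: the core lay 8.5 bp from the summit of the 4.71-fold peak and 24.5 bp from that of the 4.54-fold peak, chr4:130361727-130361919. The strongest Sdc3 peak, chr4:130439832-130440149 with a −log10 q of 20.4, had none and was nearest to the start of Laptm5.

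Sdc4, 19.6 kb on the minus strand of chromosome 2 from 164249747 to 164269387, had 2 peaks among 8 other protein-coding genes. The peak in its intron 1, chr2:164258177-164258680, had 4.92-fold enrichment at 11.1 kb from the start and no Pax-type motif. The other, chr2:164211967-164212178, had 5.44-fold enrichment with GTCACG 28.5 bp from the summit, and lay in an intron of Slpi, 2807 bp from the start of that protease inhibitor gene. The shortened core GTCAC occurred there on both strands, 28 and 34 bp from the summit, as the printed sequence shows. The 2 values were close, and the strongest Sdc4 peak was the lowest of the strongest peaks of the 8 genes, which ran up to 14.9-fold.

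Calcr, the calcitonin receptor gene, had the fewest peaks of the bound members and the strongest of all 40. The low count depended on the limit of 100 kb, since with 200 kb Calcr had 6 peaks and Sdc4 had 2. The gene covers 79.0 kb of the minus strand of chromosome 6, from 3635677 to 3714713. Its 1 peak, chr6:3691192-3691571 was enriched 14.9-fold, and its −log10 q was 71.2. It ranked 249 among all 20579 peaks, above 98.8% of them, and 97.3% of protein-coding genes had a lower strongest peak or none in their window. The summit lay in intron 3 of 15, 23.3 kb from the gene's start and 11.6 kb from its nearest annotated start. No Pax-type motif was in the printed bases, although the shortened core GTCAC, which occurs in 31.9% of all summit windows, was found 13 bp from the summit.

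Cd34 encodes a sialomucin found on quiescent satellite cells and on blood and endothelial progenitors. It lies on the plus strand of chromosome 1 from 196765015 to 196787486, and no summit fell in its 22.5 kb or within 100 kb of either end, a window shared with Cd46. The nearest peak, chr1:196937477-196937915, was 150 kb past its end, with 7.67-fold enrichment, in an intron and nearest to the start of Cd46. On the other side the nearest summits were 180.6 and 181.8 kb before its start, with 3.84-fold and 14.7-fold enrichment, and the nearest coding gene start to both was that of Plxna2. An empty window was found for the remaining 24.8% of protein-coding genes as well.

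The 40 peaks had a middle strength close to that of the whole list. Their median fold enrichment was 5.13, with quartiles of 4.27 and 7.81 and a range of 2.88 to 14.9, and the median of all peaks was 5.22, with quartiles of 4.32 and 6.74 and a range of 1.6 to 28. The 95% order-statistic interval of the member median, 4.66 to 6.00, takes in the median of the list. At least 5-fold enrichment was reached by 21 of 40, or 52.5% (95% Wilson interval 37.5% to 67.1%), against 54.9% of all peaks. The top 10% of the list, from 9.07-fold, held 7 of the 40, or 17.5% against the 10% that defines it, and these 7 came from 5 genes: Ncam1 with 3, and Vcam1, Itga7, Itgb1 and Calcr with 1 each. The medians of −log10 q were 12.9 and 11.6 and those of GC content in the summit window were 47.0% and 45.5%, members first. These intervals cover counting error only and treat peaks of a gene as independent, which they are not.

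**Figure D3:**
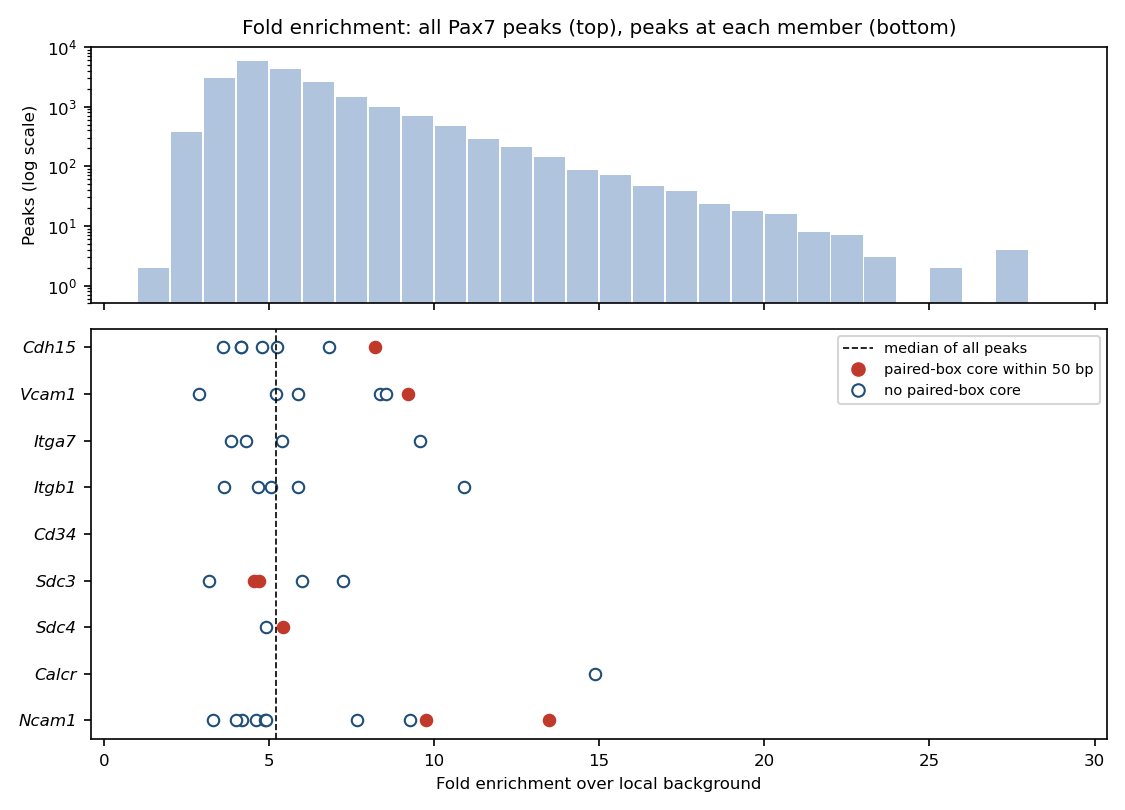
Top, number of Pax7 peaks (log scale) by fold enrichment over the local background for all 20579 peaks. Bottom, fold enrichment of each peak of each member as points, filled red where GTCACG lay within 50 bp of the summit, with a dashed line at the list's median of 5.22, and the values of most members fall on both sides of it.

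Most member peaks lay more than 1 kb from any annotated start. Their median distance to the nearest coding start was 13.0 kb, shorter than the 29.7 kb of all peaks. Of the 40 summits, 14 lay inside their gene, 15 upstream and 11 downstream, with median fold enrichment of 5.54, 4.88 and 5.25. Of the 14 inside, 13 were in introns, 8 of them in intron 1. Within 1 kb of any annotated start there were 4 summits, or 10.0% (95% Wilson interval 3.96% to 23.1%), against 16.3% of all peaks, and only 2 of the 4 were at a start of the member itself. Introns of any gene held 22, or 55.0%, against 42.1% of all peaks, and 13, or 32.5%, lay between genes, against 39.0%. The rule takes only summits in or within 100 kb of a listed gene, a limit that the whole list does not have. Shares by position and distances to starts are therefore not like for like between members and list. The intron share includes all 7 Cdh15 peaks, each of them inside the long gene model Gm20388. Only Cdh15 peak 3 had no other host gene, and the rest also lay in introns of Acsf3, Cdh15 or Ankrd11. The strongest peak was inside the gene at Vcam1, Itgb1 and Calcr and outside it at the other 5. A coding gene other than the member had the nearest start for 15 of the 40 peaks, whose median was 4.71-fold against 5.21-fold for the other 25, and the list gives no means to assign them to either gene.

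The paired-box core GTCACG was found within 50 bp of the summit at 7 of 40 member peaks, or 17.5% (95% Wilson interval 8.75% to 32%), against 11.1% of all peaks. In windows of the same width centred 500 bp to the left and right of the summits, it occurred at 1 and 0 of the 40 and at 1.24% and 1.31% of all peaks. The core was thus concentrated at the summits of the members as at those of the whole list. The difference between members and list was not seen in a narrower window: within 25 bp of the summit the core was at 3 member peaks, or 7.5%, against 7.24% of all peaks. Within 100 bp it was at 9, or 22.5%, against 14.2% of all peaks. The 7 peaks with the core within 50 bp came from 5 genes, Ncam1 and Sdc3 with 2 each and Cdh15, Vcam1 and Sdc4 with 1 each. In these 7 peaks the core lay 8.5 to 39.5 bp from the summit. Their fold enrichment ran from 4.54 to 13.5 with a median of 8.22, and the 33 member peaks without the core had a median of 4.92. Over all peaks the corresponding medians were 5.58 and 5.13. In the 8 genes with peaks, the core was in the strongest peak of 4: Cdh15, Vcam1, Sdc4 and Ncam1. The same share was not computed for the strongest peaks of other genes. Among peaks with at least 5-fold enrichment, the core was at 5 of 21 members, or 23.8%, against 12.8% of such peaks in the whole list.

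Other Pax-type motifs were rare at the members. The homeodomain site TAATTA was found at 3 of 40 peaks, or 7.5%, against 6.13% of all peaks: Vcam1 peak 5, Sdc3 peak 1 and Ncam1 peak 2. A paired box joined to a homeobox, ATTAGTCAC or ATTAGTCAT, and a homeodomain dimer, TAAT and ATTA with 2 or 3 bases between, were found at 0 of the 40, against 2.10% and 1.82% of all peaks. In all, 9 of 40 held at least 1 of these 4 motifs, or 22.5%, against 19.8% of all peaks. The E-box CAGCTG was at 4, or 10.0%, against 15.7% of all peaks. The control words GCACTG and CATCGG, made from the letters of the core, were at 3 and 1 member peaks, or 7.5% and 2.5%, against 6.86% and 1.19% of all peaks. All motifs were searched on both strands, TAATTA and CAGCTG read the same on either, and TAATTA can overlap a dimer or ATTAGTCAC in part. A match describes the letters of a window, and the lack of a match at Itga7, Itgb1 and Calcr says nothing on how Pax7 was held there.

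**Figure D4:**
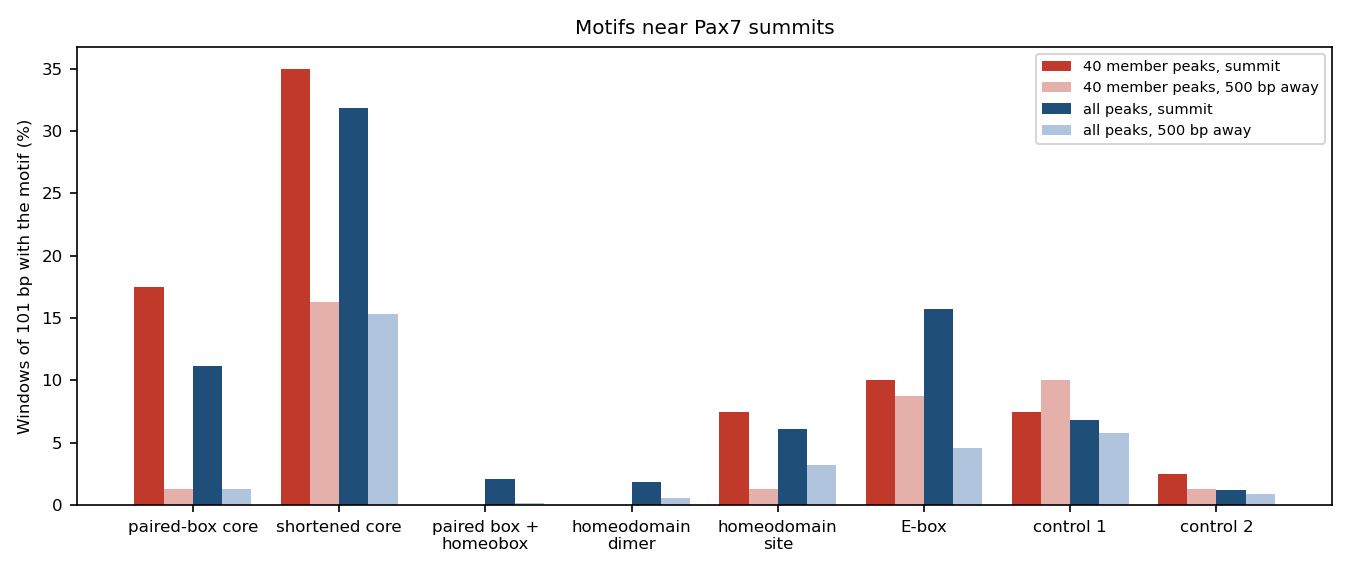
Share of windows of 50 bp to either side of a centre (%) that hold each motif, at the summit and in windows 500 bp to either side (mean of left and right), for the 40 member peaks (red) and all peaks (blue). GTCACG reaches 17.5% at member summits and 11.1% at all summits, and both controls stay close to their values 500 bp away in the whole list.

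The limit of 100 kb decided some counts. The member peak nearest to the limit was the 4.71-fold Sdc3 peak at 98.4 kb. Just outside stood a stronger peak, chr8:125269707-125270063 enriched 10.8-fold, 101.9 kb upstream of Cdh15.

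A list of 35 genes of the same families, their ligands, enzymes and other satellite cell receptors gave a setting for the members. Of these, 29 or 82.9% had a summit in the gene or within 100 kb. That compares with 75.2% of all protein-coding genes and 83.9% of those in the length range of the members. A summit inside the gene was found at 18 of the 35, against 22.3% of all protein-coding genes and 37.9% of those in the length range. The 35 genes ran from 4.1 to 636 kb, beyond that range at both ends, so neither of its shares is matched to them by length. The 35 genes had a median of 3 peaks and 12.2 per Mb, below the 5 peaks and 20.1 per Mb of the members. The most peaks were at Lama2, the laminin chain bound by the integrin of Itga7 and Itgb1. It had 15 peaks, of which 11 were inside the gene, and Itga9 and Megf10 had 12 each. Density gave another order: Lama2, a gene of 636 kb, had 17.95 summits per Mb, against 24.3 at Itga9 and 32.9 at Megf10. Megf10, a receptor of satellite cells, had a strongest peak of 15.5-fold, above every member peak. Cdh2, Cdh4 and Lama4 followed with 8 each, or 19.0, 12.2 and 23.2 per Mb. Among the 6 genes with none were Itga3, Ncam2, Podxl, Sdc1 and Sdc2. The families named next held few listed genes each, and 75.2% of all protein-coding genes had a summit, so counts by family are descriptions only. Sdc3 and Sdc4 had peaks while Sdc1 and Sdc2 had none, and Ncam1 had 10 while Ncam2 had none. Of the sialomucins, Cd34 and Podxl had none, while Podxl2 had 5 with a strongest value of 8.51-fold. Peaks were found at every listed cadherin (8 at Cdh2, 8 at Cdh4 and 2 at Cdh11), every listed laminin chain (15 at Lama2, 8 at Lama4 and 1 at Lama5) and at Ramp1, Ramp2 and Ramp3, partners of the calcitonin receptor, with 3, 4 and 2. Podxl2, Cdh11, Lama5 and the Ramp genes were chosen for mention after their values were seen.

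**Figure D5:**
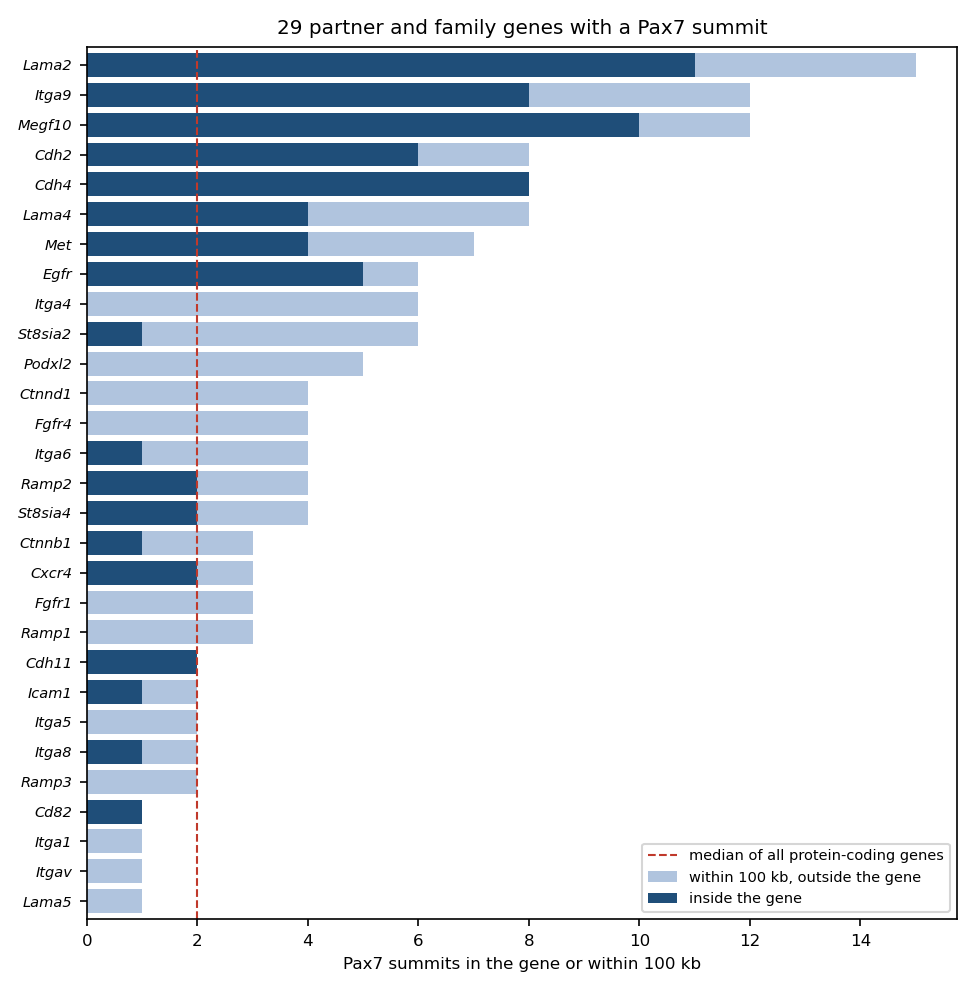
Number of Pax7 summits at each of the 29 family and partner genes that had any, inside the gene (dark) and within 100 kb outside it (light), with a dashed line at the median of 2 for all protein-coding genes. Lama2 leads with 15, followed by Itga9 and Megf10 with 12 each. Counts are not divided by the length of the window.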

How the data were processed

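Pax7 ChIP-seq of Dox-treated iPax7 cells was analysed from 1 list of peaks. The authors mapped the reads with bowtie2 (mm9), kept those with a unique place, dropped Picard duplicates, pooled the 2 ChIP and the 2 input libraries, and ran MACS2 with q under 0.01. Per the labels, all 4 libraries had the same genotype and treatment. The deposited list gives for each peak a fold enrichment (a ratio over the local background, computed by the authors with MACS2), 2 −log10 columns (p-value, q-value), a score that restates the −log10 q-value in whole numbers, and the summit. Read depth is not in the list, and precision per peak is unknown.

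Genes came from the GENCODE annotation of NCBIM37, and a gene's outermost annotated start served as its start. Coordinates are 1-based. Other genes in a window share its peaks. Intron numbers refer to the longest coding transcript that spans the summit. Summits were classed as within 1 kb of any start, then exon, intron or between genes. Motifs were searched within 50 bp of each summit. The procedures were tested on simulated data. The members and lists were chosen with earlier results of these data known. Named were all members and their peaks, genes that hold or start nearest to a peak, and of the 35 partner genes the 5 with the most peaks, with ties, and those with none. Alternatives were other thresholds, windows and ways to assign peaks. Python 3.11.15, numpy 2.4.6, pandas 2.3.3 and matplotlib 3.10.9 were used. A few gene names and a sequence that belong to these results are not reported here. Expression, chromatin contacts and other factors were not analysed here.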

Additional observations from a re-analysis of the deposited data

How the results depend on the processing

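Of 25 recomputed overall values, 18 stayed within their limits and 7 moved. A share or median stayed if it lay inside the 95% interval of the main value. A count stayed if its ratio to the main count did not pass a fixed limit. These limits were a choice, so the tally does not measure robustness. The 40 member peaks became 21 with a fold enrichment of at least 5, 23 with 25 kb beyond each gene end, 66 with 200 kb and 25 where the nearest coding start had to be the gene's own. They were 36 at a −log10 q of at least 5, 39 after merging peaks within 500 bp and 31 with 50 kb. The share with GTCACG, 17.5%, was 7.5% within 25 bp, where that of all peaks was 7.24%. Within 100 bp it was 22.5%, where that of all peaks was 14.2%. For the shortened core GTCAC, an alternative chosen after the sequences had been seen, the share within 50 bp was 35%, against 31.9% of all peaks. The share near a start, 10.0% within 1 kb, was 27.5% within 5 kb. The share of all peaks within 5 kb was not computed, so 27.5% cannot be set against the 16.3% of all peaks within 1 kb. Of 81 counts for single genes, 22 moved: with 200 kb Cd34 had 3 peaks and Calcr 6, with 50 kb Vcam1 had 3, and with the nearest own start Itga7 had 0. No paired analysis was possible because the libraries were merged before peaks were called, and leaving out a replicate could not be run for the same reason.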
